A study of Mus musculus with 71 samples.

Results

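The genes described here handle vitamin A in the gut: Scarb1, Bco1, Isx, Rbp2, Lrat, Rdh7, Dhrs9, Aldh1a1, Aldh1a2, and Rarb. They are 10 of the 24475 genes in the deposited tables, were chosen by name, and were read in each of the 3 bulk RNA-sequencing tables by segment, tissue, cell fraction, and genotype. The mice were C57BL/6, and Btnl2-KO mice (Btnl2-/-, a germline LacZ knock-in) were compared with WT mice. Intestinal epithelial cells (IECs, the upper layer of a Percoll gradient after EDTA) of mice labelled as 7 weeks old gave 16 libraries, from the duodenum (2 Btnl2-KO and 3 WT), jejunum (3 and 3), and ileum (3 and 2). Sorted CD45+TCRβ-TCRγδ+ intraepithelial lymphocytes (γδ IELs), labelled as 10 weeks old and pooled from 2 mice per library, gave 22 libraries, from the duodenum (3 and 4), jejunum (4 and 4), and ileum (3 and 4). Whole tissue, of an age the labels give only as young, gave 27 libraries, from the small intestine (7 and 7) and the colon (7 and 6). The labels do not tie libraries to single mice or litters, so p-values measure the spread between these libraries, which may be partly technical. The study cut each small intestine into 3 segments, so libraries of different segments may share mice. The tests treated them as independent.

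Vitamin A reaches the enterocyte as retinol or as carotenoids. Scarb1, a scavenger receptor, takes up carotenoids and lipids, Bco1 cleaves β-carotene to retinal, and the homeobox factor Isx, itself induced by retinoic acid, is known to repress both genes. Rbp2 is the enterocyte's cellular retinol-binding protein, and Lrat esterifies the bound retinol for export in chylomicrons. Rdh7 and Dhrs9 are short-chain dehydrogenases that can oxidize retinol to retinal, Aldh1a1 and Aldh1a2 oxidize retinal to retinoic acid, and Rarb encodes a retinoic acid receptor whose own gene responds to retinoic acid.

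By RefSeq positions on GRCm38.p6, the build the submitters' processing notes name without its patch, the 10 genes lie on 8 chromosomes. Scarb1 lies at chr5:125277087-125341094, Bco1 at chr8:117095851-117133720, Isx at chr8:74873174-74893506, Rbp2 at chr9:98490537-98509771, and Lrat at chr3:82892582-82903974. Rdh7 lies at chr10:127884027-127889247, Dhrs9 at chr2:69380462-69403086, Aldh1a1 at chr19:20492583-20643463, Aldh1a2 at chr9:71215789-71296243, and Rarb at chr14:16430839-17082331.

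RefSeq promoter windows were available for 9 of the 10 genes, with 2 start sites each for Rdh7 and Aldh1a1. The 250 bases before the start are shown for the 3 genes that fell most steeply along the small intestine (Rbp2, Rdh7, and Aldh1a1), for Isx and Bco1, for which no change along it was called, and for Rarb. Capitals mark the nuclear receptor half-site AGGTCA, the GATA motif AGATAA, and the spaced repeat GTTCACNNNNNGTTCAC, on either strand. For Rdh7 and Aldh1a1, the window shown is the one that holds a match, and the window of the other start holds none of these letters. The Aldh1a1 and Rarb windows shown precede internal starts, inside the span given above for each gene. The windows run 5′ to 3′ on the strand of the gene, at chr9:98490287-98490536 (+) for Rbp2, chr10:127889248-127889497 (-) for Rdh7, chr19:20601718-20601967 (+) for Aldh1a1, chr8:74872924-74873173 (+) for Isx, chr8:117095615-117095864 (+) for Bco1, and chr14:16575477-16575726 (-) for Rarb.
Rbp2: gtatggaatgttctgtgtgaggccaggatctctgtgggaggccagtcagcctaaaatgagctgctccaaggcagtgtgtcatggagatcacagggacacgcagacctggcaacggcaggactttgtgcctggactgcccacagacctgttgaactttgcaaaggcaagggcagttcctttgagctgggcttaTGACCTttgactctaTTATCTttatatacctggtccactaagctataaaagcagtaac
Rdh7: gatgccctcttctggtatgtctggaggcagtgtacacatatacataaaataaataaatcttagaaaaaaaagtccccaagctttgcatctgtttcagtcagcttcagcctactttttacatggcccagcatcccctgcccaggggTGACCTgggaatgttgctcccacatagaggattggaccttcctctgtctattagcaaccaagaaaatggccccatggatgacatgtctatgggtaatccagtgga
Aldh1a1: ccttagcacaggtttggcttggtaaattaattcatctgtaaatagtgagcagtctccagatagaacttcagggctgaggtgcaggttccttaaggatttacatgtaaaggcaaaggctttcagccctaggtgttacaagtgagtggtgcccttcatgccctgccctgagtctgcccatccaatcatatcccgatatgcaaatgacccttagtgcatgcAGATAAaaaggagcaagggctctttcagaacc
Isx: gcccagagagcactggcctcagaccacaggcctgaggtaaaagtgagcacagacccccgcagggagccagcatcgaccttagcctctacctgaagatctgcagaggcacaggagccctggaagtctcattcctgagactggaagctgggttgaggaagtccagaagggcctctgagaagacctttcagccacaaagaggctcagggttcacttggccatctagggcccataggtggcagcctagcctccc
Bco1: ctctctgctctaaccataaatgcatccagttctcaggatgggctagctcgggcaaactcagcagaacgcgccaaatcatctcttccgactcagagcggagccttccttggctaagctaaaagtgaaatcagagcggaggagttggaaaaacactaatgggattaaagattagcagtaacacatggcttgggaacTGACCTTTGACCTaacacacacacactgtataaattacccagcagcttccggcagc
Rarb: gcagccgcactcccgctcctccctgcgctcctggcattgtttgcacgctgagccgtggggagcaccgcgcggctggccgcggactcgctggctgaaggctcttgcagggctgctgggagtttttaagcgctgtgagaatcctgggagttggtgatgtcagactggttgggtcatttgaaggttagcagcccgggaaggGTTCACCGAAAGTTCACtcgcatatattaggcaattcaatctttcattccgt

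AGGTCA was found, on either strand, in the windows of Rbp2, Bco1, and Dhrs9 and of 1 of the 2 starts of Rdh7, and in 14% of all 32851 RefSeq promoter windows of this length. Bco1 holds it in tandem, spaced by 1 base (AGGTCANAGGTCA), 56 to 44 bases before its start, an arrangement present in 11 of the 32851 windows. AGATAA, the motif of the duodenal and jejunal factor Gata4 and its relatives, was found 43 to 38 bases before the start of Rbp2 and 32 to 27 bases before one start of Aldh1a1, and in 9.99% of all windows. The hexamer TTTATG, recognized by Cdx2, was found in the windows of Bco1 and of one start of Rdh7 and in 10.8% of all windows. The letters GTTCACNNNNNGTTCAC were taken from the Rarb window itself, where a retinoic acid response element is known, and occur in 2 of the 32851 windows. Such matches describe letters and do not show that a factor binds, and the absence of a match concerns these letters in this window only.

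Total counts per library ranged from 15397757 to 38258472 for IECs, 13444958 to 30029485 for γδ IELs, and 13619309 to 21708721 for tissue. Levels are given as CPM, in which the counts of every library are scaled to the same total after TMM normalization, which allow a gene to be compared between libraries of a table but not with other genes, since they are not divided by gene length. The genotype labels were checked by Btnl2, which stood at 25.1 to 67.7 CPM in WT IECs and at 0.342 to 0.595 CPM in 6 of 8 Btnl2-KO IEC libraries, the exceptions being libraries 1003459 (5.45 CPM) and 1003474 (19.5 CPM). In 3 Btnl2-KO IEC libraries the regional markers went against the segment label. Fabp6, the ileal bile acid-binding protein, stood at 220.3 CPM in library 1003459, labelled duodenum, and at 484 CPM in library 1003474, labelled jejunum, against at most 20.2 CPM in the duodenal and jejunal WT libraries. In library 1003481, labelled ileum, Fabp6 stood at 0.231 CPM and Gata4 at 153 CPM, against 580 to 586 and 29.9 to 34.9 CPM in ileal WT libraries. Segment comparisons therefore use WT libraries, and Btnl2-KO values in IECs are given with these libraries named. Among the small intestine tissue libraries, Gata4 stood at 95.6, 82.7, and 15.1 CPM in libraries 964939 (Btnl2-KO), 964950, and 964952 (both WT) and at no more than 2.30 CPM in the other 11, in which Fabp6 was 1564 to 3985 CPM.

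The first question was how the vitamin A genes change along the small intestine in IECs of WT mice. In the ileum, 5 of the 10 genes were called lower than in the duodenum: Rbp2, Rdh7, Aldh1a1, Scarb1, and Lrat. None was called higher, while Isx, Bco1, and Dhrs9 were tested and did not pass, and Aldh1a2 and Rarb were below the minimum of 10 counts for testing. Calls required a Benjamini-Hochberg FDR below 0.05 over all genes and a fold change above 1.5 in edgeR's quasi-likelihood test. Among all 13046 genes tested, 2.38% were called lower in the ileum than in the duodenum and 4.21% higher.

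Rbp2 changed most. In the 3 duodenal WT libraries it stood at 348, 508, and 155 CPM, in the 3 jejunal libraries at 23.0, 175, and 135 CPM, and in both ileal libraries at 9.37 and 10.9 CPM. The ileal libraries lay below every duodenal and jejunal library, while duodenum and jejunum overlapped. The log2 fold change from duodenum to ileum was -5.02 with a standard error (SE) of 0.904 and an edgeR FDR of 0.0119, a 32.5-fold lower level.

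Lrat, which esterifies the retinol that Rbp2 presents, changed less. It stood at 22.2, 15.2, and 23.5 CPM in the duodenum, 15.0, 9.93, and 16 CPM in the jejunum, and 8.35 and 9.65 CPM in the ileum. Neighbouring segments overlapped only between duodenum and jejunum, and the ileum was 2.22-fold lower than the duodenum (log2 fold change -1.15, SE 0.282, edgeR FDR 0.0433).

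The dehydrogenase Rdh7 stood at 48.9, 147, and 41.7 CPM in the duodenum, 6.79, 29.5, and 16 CPM in the jejunum, and 2.99 and 3.31 CPM in the ileum, with no overlap between any of the segments. From duodenum to ileum it fell 24.4-fold (log2 fold change -4.61, SE 0.793, edgeR FDR 0.00953). Dhrs9, which catalyzes the same step, stood at 0.983 to 2.66 CPM across the 8 WT libraries, and its segments overlapped. Aldh1a1, the next enzyme, stood at 132, 264, and 101 CPM in the duodenum, 17, 58.4, and 40.3 CPM in the jejunum, and 17.9 and 20.7 CPM in the ileum. Duodenal Aldh1a1 lay above all other libraries, jejunum and ileum overlapped, and the ileum was 8.35-fold lower than the duodenum (log2 fold change -3.06, SE 0.577, edgeR FDR 0.0143).

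Of the genes of carotenoid uptake, Scarb1 stood at 6.90, 6.20, and 2.02 CPM in the duodenum, 1.84 to 2.05 CPM in the jejunum, and 1.09 and 0.947 CPM in the ileum, 4.81-fold lower than in the duodenum (log2 fold change -2.26, SE 0.506, edgeR FDR 0.0299). The third duodenal library lay within the jejunal range. Isx did not follow this order. It stood at 103, 105, and 114 CPM in the duodenum, 117, 119, and 116 CPM in the jejunum, and 119 and 107 CPM in the ileum, with a log2 fold change from duodenum to ileum of 0.10 (SE 0.161). Bco1, at 0.921 to 3.57 CPM in the 8 WT libraries, had a log2 fold change of -0.01 (SE 0.563), an error too wide to call it unchanged.

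Between neighbouring segments no vitamin A gene was called. From duodenum to jejunum, Aldh1a1 came nearest (log2 fold change -2.07, SE 0.470, edgeR FDR 0.0969), and 5 of the 8 genes tested had an unadjusted p below 0.05, against 14.5% of all genes. Of all genes, 0.314% were called lower. From jejunum to ileum, Rbp2 came nearest (log2 fold change -3.44, SE 0.833, edgeR FDR 0.153), and 0.207% of all genes were called lower. DESeq2 called Rdh7 and Aldh1a1 in the first of these comparisons and Rbp2 and Rdh7 in the second. Without either ileal WT library, which leaves 1 that is assumed to vary like the other groups, no vitamin A gene was called from duodenum to ileum, although the log2 fold changes stayed close (-4.95 and -5.13 for Rbp2, -4.58 and -4.68 for Rdh7). Of the 5 genes, 3 were called without duodenal library 1003465 or jejunal library 1003480, and Lrat and Scarb1 were not. Lrat was also not called without duodenal library 1003468 or jejunal library 1003476 (edgeR FDR 0.0935 and 0.0643). Scarb1 was also not called without jejunal library 1003477 (edgeR FDR 0.0504). In one fit with all 16 libraries, none was called in any of these comparisons, and with the 3 discordant Btnl2-KO libraries left out of that fit the same number, 5, was called from duodenum to ileum.

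**Figure D1:**
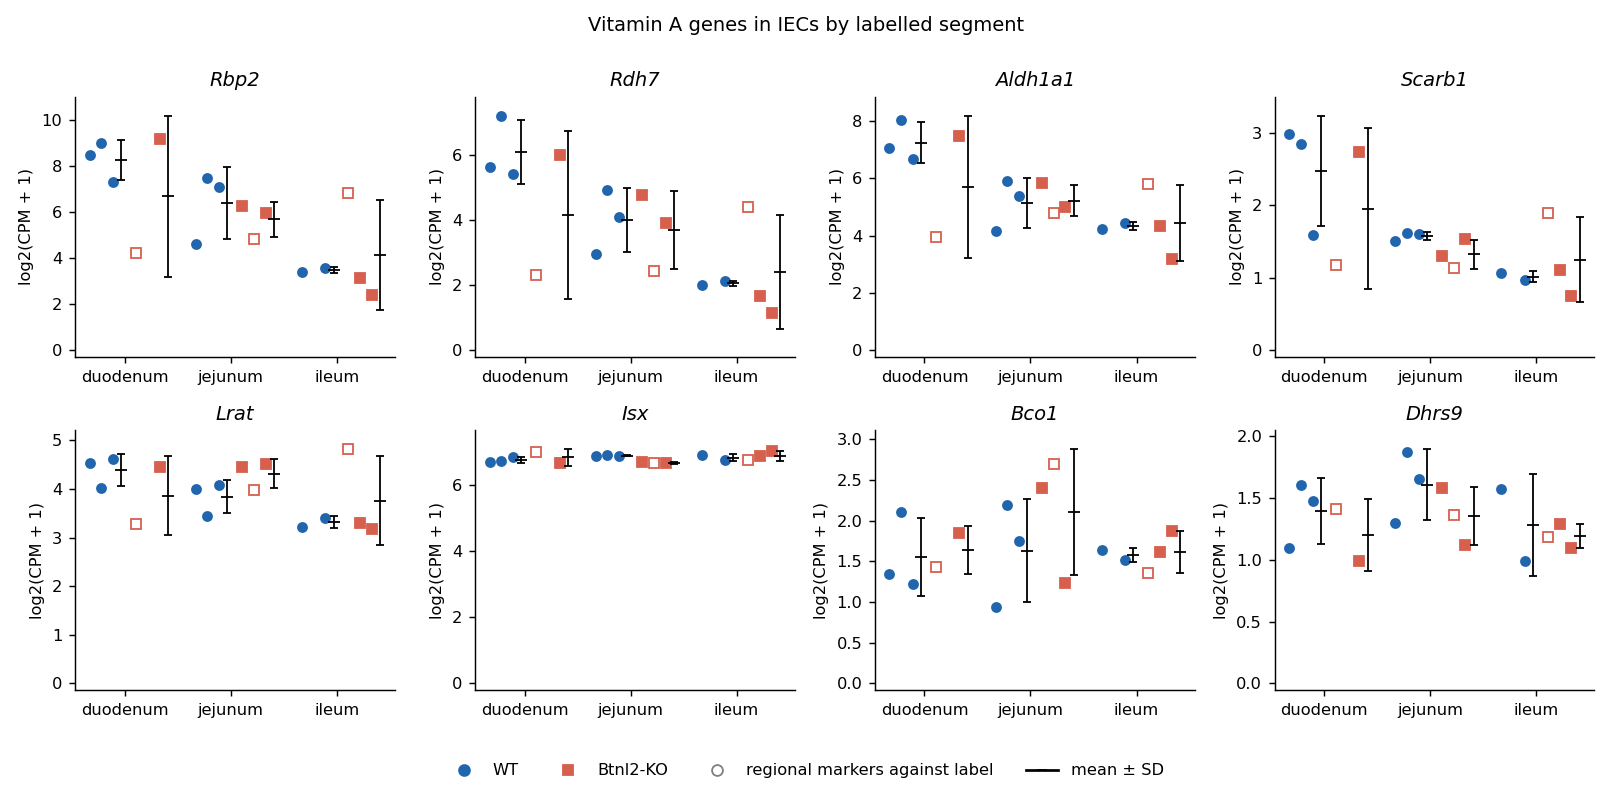
Levels of 8 vitamin A genes in 16 IEC libraries by labelled segment, as log2(CPM + 1), with 1 point per library, WT in blue and Btnl2-KO in red, and the mean ± SD of each group in black. Open squares are the Btnl2-KO libraries whose regional markers went against their label, and in WT libraries Rbp2, Rdh7, Aldh1a1, Scarb1, and Lrat have their lowest mean in the ileum while Isx stays between 103 and 119 CPM.

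The other genes of the retinoid pathway were read from a list of 54. In WT IECs, 41 of these could be tested, and from duodenum to ileum 9 were called lower and 1 higher. The median log2 fold change was -0.58 against 0.01 over all genes tested. Of all genes, 2.38% were called lower and 4.21% higher. The alcohol dehydrogenase Adh1, which can oxidize retinol, stood at 126 to 313 CPM in the duodenum and at 5.76 and 6.48 CPM in the ileum (log2 fold change -5.13, SE 0.577, edgeR FDR 0.00142). Of the 18 tested genes that oxidize retinol or reduce retinal, 5 were called lower and none higher, among them Adh7, another alcohol dehydrogenase, which stood at 0.496 to 1.38 CPM in the duodenum and at 0 and 0.0364 CPM in the ileum. Adh7 had 10 to 29 counts in the duodenum and at most 2 in any other WT library, so it passed the minimum only through the duodenum and could only be lower. Against this direction, Plb1, a brush-border phospholipase that hydrolyses retinyl esters, rose from 0.695 to 3.31 CPM in the duodenum to 74.9 and 102 CPM in the ileum (log2 fold change 5.71, SE 0.750, edgeR FDR 0.00290). From duodenum to jejunum, 3 of the 41 were called lower and 1 higher, among them Adh4 (log2 fold change -2.95, SE 0.395, edgeR FDR 0.0146) and Plb1 (log2 fold change 5.18, SE 0.715, edgeR FDR 0.0168), and from jejunum to ileum none was called. Adh7 was also among those lower in the jejunum, at no more than 0.0635 CPM. From duodenum to jejunum, 0.314% of all genes were called lower and 0.452% higher.

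Over the 16 IEC libraries, Btnl2-KO included, the 3 genes most like Rbp2 in log2(CPM + 1) were Slc25a45, Cyp2b10, and Khk (Pearson's r 0.986, 0.985, and 0.976 over 11479 genes compared). Rdh7 held place 10 in that order (r = 0.971) and Aldh1a1 place 35 (r = 0.949), whereas Dhrs9 and Bco1 were at r = 0.182 and 0.0969. The genes most like Isx were Slc28a3, Fam189a1, and H6pd (r = 0.864, 0.836, and 0.831), and Isx gave r = -0.706 with Lrat and -0.620 with Aldh1a1. These coefficients describe libraries that share segment and preparation, and no p is given.

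In discordant Btnl2-KO libraries 1003459 and 1003481, Rbp2, Rdh7, and Aldh1a1 stood apart from the other Btnl2-KO libraries of the same label. In library 1003459, labelled duodenum, Rbp2 stood at 17.2 CPM, Rdh7 at 3.97 CPM, and Aldh1a1 at 14.5 CPM, against 567, 62.3, and 176 CPM in the other duodenal Btnl2-KO library. In library 1003481, labelled ileum, Rbp2 stood at 113 CPM, Rdh7 at 20.1 CPM, and Aldh1a1 at 55.3 CPM, against 4.28 to 7.69, 1.22 to 2.16, and 8.06 to 18.9 CPM in the other ileal Btnl2-KO libraries. Library 1003474, labelled jejunum, held the lowest jejunal Btnl2-KO values of Rbp2 (27.2 CPM), Rdh7 (4.34 CPM), and Aldh1a1 (26.8 CPM). Its Isx (101 CPM) lay between those of the other jejunal Btnl2-KO libraries (99.5 and 103 CPM).

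The second question was whether the same genes differ along the gut in sorted γδ IELs of WT mice, a separate set of mice and libraries. Rbp2, Rdh7, and Aldh1a1 were called lower in the ileum than in the duodenum, 3 of the 10 genes, and none was called higher, with 1.03% of all 12899 genes tested called lower. Only 6 of the 10 genes could be tested, since Bco1, Dhrs9, Aldh1a2, and Rarb had too few counts.

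Rbp2 stood at 655, 350.1, 135, and 248 CPM in the duodenum, 24.5, 58.0, 24.2, and 40.1 CPM in the jejunum, and 2.26, 5.16, 2.53, and 1.13 CPM in the ileum. No libraries of different segments overlapped. The log2 fold change was -3.25 (SE 0.475, edgeR FDR 0.00208) from duodenum to jejunum, -3.73 (SE 0.529, edgeR FDR 0.00378) from jejunum to ileum, and -6.98 (SE 0.588, edgeR FDR 2.28e-05) from duodenum to ileum.

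Aldh1a1 stood at 72.8, 68.3, 26.7, and 30.6 CPM in the duodenum, 7.72 to 15.2 CPM in the jejunum, and 3.33 to 6.02 CPM in the ileum. Each segment lay wholly below the one before it, with log2 fold changes of -2.14 (SE 0.344, edgeR FDR 0.00208), -1.27 (SE 0.354, edgeR FDR 0.0160), and, from duodenum to ileum, -3.41 (SE 0.371, edgeR FDR 0.000210). Rdh7 stood at 14.8 to 37.8 CPM in the duodenum, 4.57 to 12.7 CPM in the jejunum, and 0.119 to 4.66 CPM in the ileum, where 1 library overlapped the jejunum. It was called from duodenum to ileum (log2 fold change -3.87, SE 0.699, edgeR FDR 0.00879) and from jejunum to ileum (log2 fold change -2.32, SE 0.674, edgeR FDR 0.0194). It was not called from duodenum to jejunum (log2 fold change -1.55, SE 0.609, edgeR FDR 0.0638).

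In all, 2 of the 10 genes were called lower from duodenum to jejunum, where 12.1% of all genes were, and 3 from jejunum to ileum, where 10.5% were. Isx was not called in any of the 3 comparisons (log2 fold changes -0.02 to 0.58, SE 0.399 to 0.401), nor were Lrat and Scarb1. Of the 36 tested genes of the pathway list, 8 were called lower and 5 higher from duodenum to jejunum, 3 and 1 from duodenum to ileum, and 8 and 3 from jejunum to ileum. Of all 12899 genes, 1337, 139, and 1466 were called higher in these comparisons. The median log2 fold change of the list was -0.14, -0.08, and -0.19, against 0.02, -0.01, and 0.01 over all genes. Adh1 stood at 167 to 313 CPM in the duodenum and 28.9 to 51.0 CPM in the ileum (log2 fold change -2.67, SE 0.215, edgeR FDR 1.54e-05). Adh4 stood at 5.17 to 13.3 CPM in the duodenum and at no more than 0.653 CPM in the jejunum and 0.430 CPM in the ileum. Adh4 passed the minimum through the duodenum, so downstream it could only be lower. Plb1 was again higher downstream, at 0 to 0.0786 CPM in the duodenum, 0.460 to 8.89 CPM in the jejunum, and 0.734 to 4.94 CPM in the ileum. With duodenal values near 0, Plb1 passed the minimum only through the jejunum and ileum, so here it could only be higher than in the duodenum. Ttr, the carrier of plasma retinol-binding protein, was lower in the jejunum (log2 fold change -2.26, SE 0.594, edgeR FDR 0.0118) than in the duodenum and higher in the ileum than in the jejunum (log2 fold change 2.57, SE 0.598, edgeR FDR 0.00779). The other with the largest change from duodenum to jejunum was Rdh9 (log2 fold change 1.61, SE 0.554, edgeR FDR 0.0391). From jejunum to ileum, the others were Cd36 (-3.05, SE 1.06, edgeR FDR 0.0403), Npc1l1 (-1.14, SE 0.379, edgeR FDR 0.0346), and Rbp7 (1.55, SE 0.430, edgeR FDR 0.0156), on the log2 scale. Cd36 stood at 0 to 0.788 CPM (median 0.0282) in the ileum and 0.256 to 2.90 CPM in the jejunum. With an ileal median near 0, Cd36 could hardly have been called higher there.

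These libraries hold RNA of epithelial genes. Epcam, an epithelial adhesion protein, stood at 123 to 957 CPM in the 22 γδ IEL libraries against 623 to 1077 CPM in IECs, and the summed level of 10 epithelial markers was 599.5 to 8497 CPM against 7974 to 13423 CPM. All 10 of these markers were detected in every γδ IEL library. The T cell gene Cd3e was 846 to 1923 CPM in γδ IELs and 0.461 to 21.8 CPM in IECs. The epithelial sum was 3100 to 5019 CPM in the duodenal, 1968 to 5354 CPM in the jejunal, and 3306 to 8497 CPM in the ileal WT γδ IEL libraries. The sum of 8 enterocyte markers was 851 to 4024 CPM in the duodenum, 359 to 1164 CPM in the jejunum, and 205 to 628 CPM in the ileum. Whether the vitamin A transcripts of these libraries come from γδ IELs was not tested. In one fit with all 22 libraries, Rdh7 was no longer called in either comparison (edgeR FDR 0.111 and 0.115), nor was Aldh1a1 from jejunum to ileum (edgeR FDR 0.166), and without ileal library 1105589 only Rbp2 was called from jejunum to ileum.

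**Figure D2:**
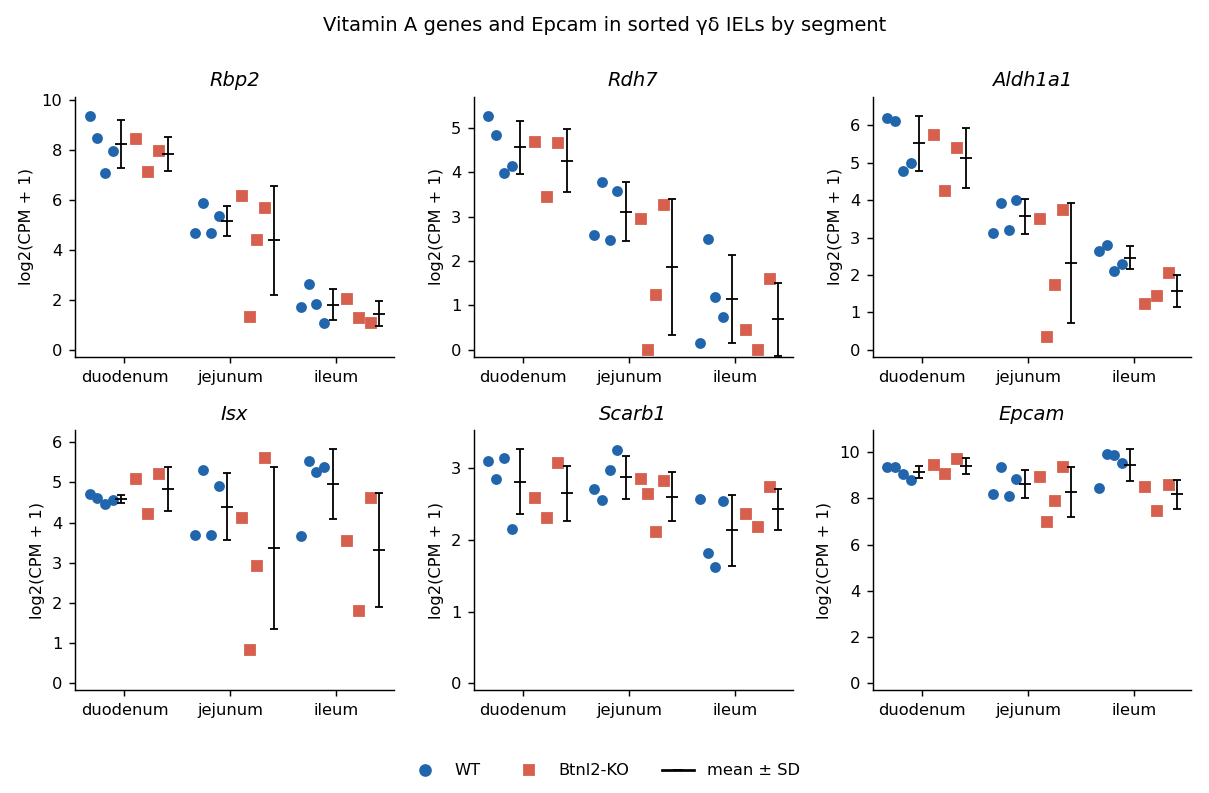
Levels of Rbp2, Rdh7, Aldh1a1, Isx, and Scarb1, and of the epithelial marker Epcam, in 22 libraries of sorted γδ IELs by segment, as log2(CPM + 1), with 1 point per library, WT in blue and Btnl2-KO in red, and the mean ± SD of each group in black. Rbp2 falls from 135 to 655 CPM in duodenal to 1.13 to 5.16 CPM in ileal WT libraries, while Epcam stands at 443 to 656 and 344 to 957 CPM in them.

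The third question was which fraction carries which gene. Aldh1a2 was nearly absent from both cell fractions and present in whole tissue, and Rarb was low in both fractions. Aldh1a2, the retinoic acid-forming enzyme of stromal and dendritic cells, had 0 to 4 counts (0 to 0.179 CPM) in the 16 IEC libraries and no count in 21 of the 22 γδ IEL libraries. In small intestine tissue it stood at 11.5 to 25.7 CPM (median 14.7) and in colon tissue at 2.35 to 10.7 CPM (median 5.44). Rarb stood at 0.0364 to 0.553 CPM (1 to 7 counts) in IECs, 0 to 0.916 CPM in γδ IELs, 2.07 to 4.19 CPM in small intestine tissue, and 0.924 to 3.23 CPM in colon tissue. The tissue libraries of Aldh1a2 lay above all libraries of the cell fractions, whereas for Rarb the highest γδ IEL and the lowest colon library nearly touched.

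The tables were normalized separately, so these levels are set side by side without a test. Markers of other cells moved with the same fractions. The sum of 5 fibroblast markers was 0 to 5.62 CPM in IECs, 0 to 0.667 CPM in γδ IELs, and 854 to 2337 CPM in tissue, and that of 5 smooth muscle markers was 0.149 to 8.61, 0.0585 to 0.803, and 2519 to 9350 CPM. The sum of 7 myeloid and dendritic markers was 14.4 to 29.6 CPM in IECs, 78.5 to 222 CPM in γδ IELs, of which Itgax alone gave 67.3 to 209 CPM, and 87.5 to 389 CPM in tissue. In bulk tissue, fewer cells of a type and less RNA per cell cannot be told apart. Over the 27 tissue libraries, the genes most like Aldh1a2 in log2(CPM + 1) were Myrf, Mmd, and Colec10 (r = 0.931, 0.924, and 0.921 over 14341 genes), as a description of libraries that differ in tissue.

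**Figure D3:**
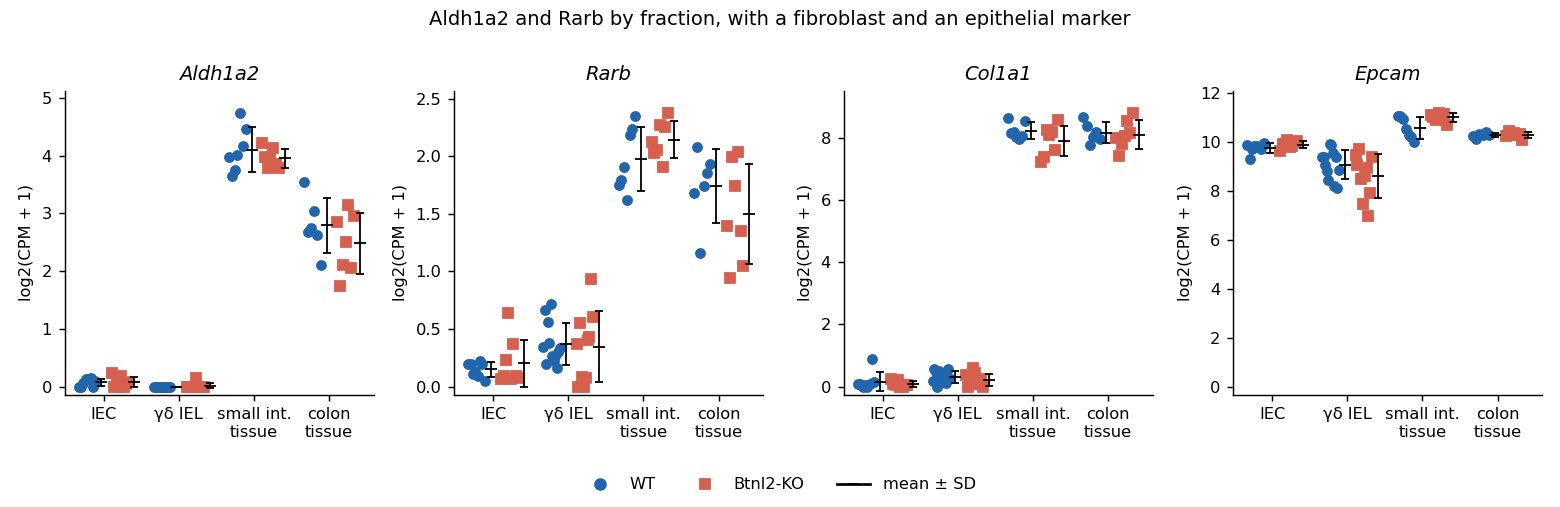
Aldh1a2, Rarb, the fibroblast gene Col1a1, and the epithelial gene Epcam in IECs, γδ IELs, small intestine tissue, and colon tissue, as log2(CPM + 1), with 1 point per library, WT in blue, Btnl2-KO in red, and the mean ± SD in black. Aldh1a2 reaches at most 0.179 CPM in the cell fractions and at least 2.35 CPM in tissue, and Col1a1 separates the same libraries. The tables were normalized separately.

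The fourth question was how whole colon tissue differs from whole small intestine tissue. In WT mice, 7 of the 10 genes were called lower in the colon and Scarb1 and Dhrs9 higher, and in Btnl2-KO mice 8 were called lower, Rarb being the eighth, and the same 2 higher. Among all genes, 15.6% were called lower and 12% higher in WT mice, and 15.7% and 14.4% in Btnl2-KO mice. Rdh7 had at most 7 counts in each of the 13 colon libraries and passed the minimum only through the small intestine, so it could only be lower.

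For carotenoid uptake, Scarb1 stood at 9.88 to 14.4 CPM (median 12.6) in small intestine and at 21.4 to 29.6 CPM (median 26.2) in colon of WT mice, with no overlap (log2 fold change 1.09, SE 0.101, edgeR FDR 8.22e-07). In Btnl2-KO mice it stood at 6.87 to 12.8 CPM (median 10.2) and 25.9 to 30.4 CPM (median 28.8), again apart (log2 fold change 1.55, SE 0.116, edgeR FDR 1.65e-08). Isx went the other way: 61.8 to 137 CPM (median 107) in small intestine and 1.04 to 37.8 CPM (median 6.90) in colon of WT mice (log2 fold change -3.13, SE 0.575, edgeR FDR 0.000468). In Btnl2-KO mice Isx stood at 85.4 to 167 CPM (median 136) and 0.574 to 44.5 CPM (median 2.99), a log2 fold change of -3.34 (SE 0.724, edgeR FDR 0.00111). The tissues of either genotype did not overlap in Isx, but the colon libraries spread over a range far wider on the log2 scale than those of the small intestine. Bco1 was lower in colon as well, by 1.27 (SE 0.411, edgeR FDR 0.0200) on the log2 scale in WT and 1.33 (SE 0.261, edgeR FDR 0.000488) in Btnl2-KO mice, and its ranges overlapped in both.

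Of the retinol-binding and esterifying genes, Rbp2 stood at 1.72 to 243 CPM (median 43.3) in small intestine and 4.33 to 18.3 CPM (median 11.1) in colon of WT mice, with overlap. In Btnl2-KO mice it stood at 52.7 to 323 CPM (median 66.3) and 7.52 to 31.4 CPM (median 16.4), without overlap. The log2 fold changes were -2.74 (SE 0.810, edgeR FDR 0.0126) and -2.77 (SE 0.464, edgeR FDR 0.000117). Lrat stood at 15.7 to 35.7 CPM (median 26.7) in small intestine and 1.39 to 9.54 CPM (median 3.07) in colon of WT mice, and at 29.1 to 49.5 CPM (median 35.8) and 0.912 to 8.23 CPM (median 2.42) in Btnl2-KO mice. Its tissues did not overlap in either genotype (log2 fold changes -2.70, SE 0.369, and -3.30, SE 0.421, with edgeR FDR 3.45e-05 and 7.31e-06).

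The retinol dehydrogenases parted. Rdh7 stood at 1.67 to 27.7 CPM in small intestine and 0 to 0.268 CPM in colon of WT mice, and at 4.56 to 90.0 CPM and 0 to 0.426 CPM in Btnl2-KO mice. Dhrs9 stood at 0.839 to 4.40 CPM (median 1.15) in small intestine and 1.22 to 13.3 CPM (median 5.14) in colon of WT mice, and at 0.840 to 2.10 CPM (median 1.20) and 1.26 to 16.5 CPM (median 8.72) in Btnl2-KO mice. The ranges of Dhrs9 overlapped, with log2 fold changes of 1.58 (SE 0.526, edgeR FDR 0.0235) and 2.65 (SE 0.583, edgeR FDR 0.00128). In WT mice the Dhrs9 call was lost without colon library 964932 or 964934, and also without the small intestine libraries with high Gata4 (log2 fold change 1.28, edgeR FDR 0.0826).

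Aldh1a1 stood at 62.4 to 228 CPM (median 85.0) in small intestine and 31.0 to 73.2 CPM (median 47.4) in colon of WT mice, and at 153 to 239 CPM (median 191) and 33.9 to 64.7 CPM (median 41.6) in Btnl2-KO mice, where the tissues did not overlap. Its log2 fold changes were -1.31 (SE 0.341, edgeR FDR 0.00597) and -2.12 (SE 0.138, edgeR FDR 3.45e-09). Aldh1a2 was lower in colon without overlap in either genotype, by 1.44 (SE 0.251, edgeR FDR 0.000308) and 1.58 (SE 0.223, edgeR FDR 2.15e-05) on the log2 scale. Rarb fell by 0.82 in Btnl2-KO mice (SE 0.241, edgeR FDR 0.00992), with overlap, and in WT mice its log2 fold change of -0.34 (SE 0.221, edgeR FDR 0.231) did not pass.

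**Figure D4:**
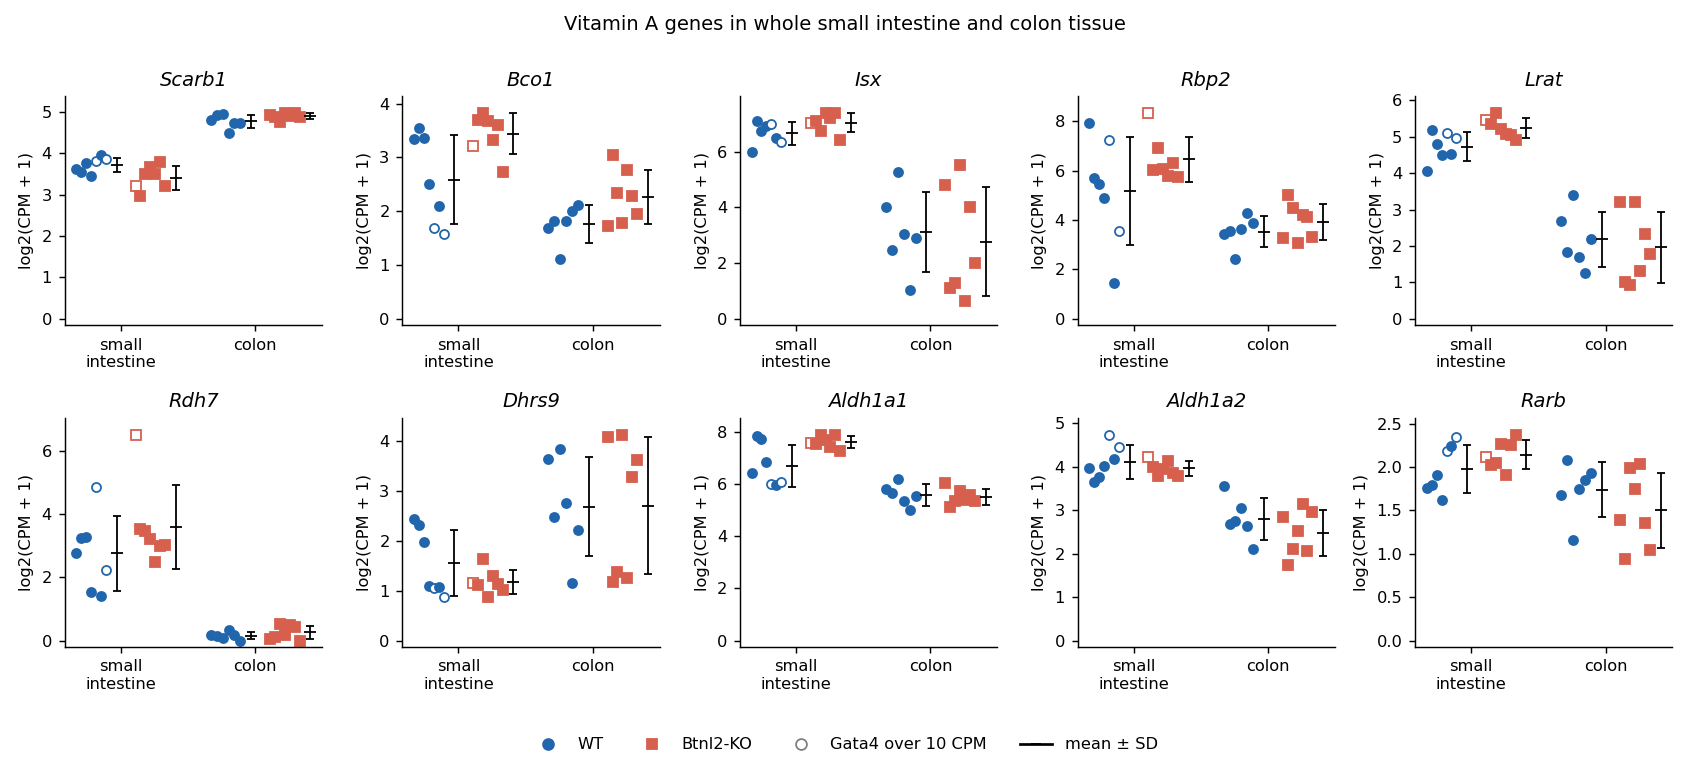
The 10 vitamin A genes in 14 small intestine and 13 colon tissue libraries, as log2(CPM + 1), with 1 point per library, WT in blue, Btnl2-KO in red, open symbols for the 3 small intestine libraries with Gata4 over 10 CPM, and the mean ± SD of each group in black. Scarb1 and Dhrs9 are higher and the other genes but Rarb in WT mice lower in colon, and Isx, Lrat, and Dhrs9 spread widely among colon libraries.

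Within small intestine tissue, Rbp2 and Rdh7 varied widely between libraries. Rdh7 stood at 90.0 CPM in Btnl2-KO library 964939 and 27.7 CPM in WT library 964950, the libraries with the highest Gata4, and at no more than 10.4 CPM in the other 12, among them WT library 964952, with Gata4 at 15.1 CPM and 75 counts of Rdh7. Rbp2 was 323 and 150.1 CPM in these libraries, but 243 CPM in WT library 964946, whose Gata4 was 2.30 CPM. The lowest Rbp2 values, 1.72 and 10.7 CPM, were in WT libraries 964951 and 964952, which also held the lowest sums of 8 enterocyte markers (3302 and 2100 CPM against 9071 to 31279 CPM in the other 12). The part of these markers in the Rbp2 and Rdh7 values was not tested.

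Of the 54 other pathway genes, 44 were tested in WT tissue, and 14 were called lower and 8 higher in the colon, with a median log2 fold change of -0.21 against -0.02 over all genes. In Btnl2-KO tissue 14 of 42 were called lower and 7 higher (median -0.38 against 0.02). Npc1l1, the sterol transporter of the enterocyte brush border, stood at 139 to 675 CPM in small intestine and at most 0.760 CPM in colon of WT mice. It had 2 to 13 counts in these colon libraries and passed the minimum through the small intestine, so it could only be lower. Adh1 stood at 16.3 to 33.2 CPM in small intestine and 421 to 1082 CPM in colon of WT mice (log2 fold change 5.12, SE 0.246, edgeR FDR 1.00e-09). In Btnl2-KO mice the log2 fold change of Adh1 was 5.01 (SE 0.293, edgeR FDR 9.95e-10). Plb1 was lower in colon in both genotypes, at 0.241 to 0.585 CPM in WT and 0.172 to 1.09 CPM in Btnl2-KO colon. Its small intestine libraries spread from 0.445 to 575 CPM in WT mice. Plb1 too passed the minimum through the small intestine, so it could only be lower in colon. The other genes with the largest rise were Rdh19 in WT mice, at 0.658 to 1.14 CPM in colon and at most 0.163 CPM in small intestine, and Ttr in Btnl2-KO mice, at 17.4 to 55.9 and 0.465 to 2.62 CPM. Rdh19 passed the minimum only through the colon, so it could only be higher there. Of the 8 genes known to respond to retinoic acid, 7 were tested in WT tissue. Of these, 5 were called lower in the colon and none higher. In Btnl2-KO tissue 3 of 6 were called lower and none higher. The shares of all genes called lower were 15.6% and 15.7%. This list of 8 includes the lymphocyte homing genes Ccr9, Itga4, and Itgb7. Over both genotypes, 8 T cell and γδ IEL markers summed to a median of 139 CPM in small intestine and 8.69 CPM in colon. The part of T cell content in these calls was not tested. In WT γδ IELs, 3 of the 5 retinoic acid-responsive genes tested were called higher from duodenum to jejunum and 3 of 5 lower from jejunum to ileum. From duodenum to ileum 0 were called. Of all genes, 10.4% were called higher in the first comparison and 10.5% lower in the second. In either direction, 2900, 2822, and 272 genes were called in these 3 comparisons. In WT IECs, 0 of the 5 were called in each comparison. Of the genes that oxidize retinol or reduce retinal, 5 of 16 were called higher and 0 lower in WT colon, and 3 of 15 higher and 1 lower in Btnl2-KO colon.

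In the 13 colon libraries Isx varied widely, and several vitamin A genes varied with it, a relation chosen for testing after its values were seen. Isx was highest in libraries 964928 (44.5 CPM, Btnl2-KO), 964934 (37.8 CPM, WT), and 964925 (26.7 CPM, Btnl2-KO), and lowest in 964929 (0.574 CPM, Btnl2-KO), 964936 (1.04 CPM, WT), 964926 (1.18 CPM, Btnl2-KO), and 964927 (1.46 CPM, Btnl2-KO). Lrat was 8.19, 9.54, and 8.23 CPM in the first 3 and 1.49, 1.39, 1.01, and 0.912 CPM in the last 4. Dhrs9 was 16.5, 13.3, and 15.8 CPM in the first and 1.38, 1.22, 1.26, and 1.58 CPM in the last. Both genotypes were found at both ends.

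On log2(CPM + 1), Isx and Lrat were correlated with Pearson's r = 0.960 (n = 13, permutation p = 2e-05, adjusted 0.00026) and Spearman's rho = 0.890 (permutation p = 6e-05). For Isx and Dhrs9, r was 0.899 (n = 13, permutation p = 8e-05, adjusted 0.000347) and rho 0.907 (permutation p = 6e-05), and for Aldh1a1, r was 0.839 (n = 13, permutation p = 0.0004, adjusted 0.0013) and rho 0.775 (permutation p = 0.0027). Rbp2 and Bco1 ran against Isx, with r = -0.781 (n = 13, permutation p = 0.0013, adjusted 0.00338) and rho = -0.791 (permutation p = 0.00198) for Rbp2, and r = -0.731 (n = 13, permutation p = 0.00264, adjusted 0.0049) and rho = -0.742 (permutation p = 0.00498) for Bco1. Scarb1, Aldh1a2, and Rarb gave r = 0.319, 0.174, and -0.235 (n = 13, permutation p = 0.291, 0.566, and 0.436). The tests were two-sided, and p-values of r were adjusted over the 13 relations computed.

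Without libraries 964928 and 964934, whose Isx lay farthest from the median, r was 0.935 for Lrat, 0.874 for Dhrs9, 0.821 for Aldh1a1, -0.656 for Rbp2, and -0.648 for Bco1 (n = 11). Within the 7 Btnl2-KO libraries r was 0.961 for Lrat (exact permutation p = 0.00476, adjusted 0.0619) and 0.882 for Dhrs9 (exact permutation p = 0.0107, adjusted 0.0695), and within the 6 WT libraries 0.958 (exact permutation p = 0.0111, adjusted 0.0361) and 0.959 (exact permutation p = 0.00833, adjusted 0.0361). For Rbp2 it was -0.719 and -0.929 and for Bco1 -0.787 and -0.831 (exact permutation p = 0.0647 and 0.0139, adjusted 0.0987 and 0.0361, and 0.0385 and 0.05, adjusted 0.0834 and 0.0929). The direction was thus the same in both genotypes for these genes.

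Of the colon markers given here, Hoxb13 and Muc2 varied with Isx, and Car1 and Aqp8 did not pass. Hoxb13, a homeobox gene of the distal colon, gave r = -0.875 with Isx (n = 13, permutation p = 4e-05, adjusted 0.00026), from 111 CPM in library 964934 to 429.5 CPM in library 964926. Muc2, the goblet cell mucin, gave r = 0.806 (n = 13, permutation p = 0.0018, adjusted 0.0039). Car1 and Aqp8, also colon genes, gave r = -0.492 and -0.133 (n = 13, permutation p = 0.0869 and 0.685). Their signs differed by genotype. For Car1 r was -0.850 within Btnl2-KO and 0.583 within WT libraries (exact permutation p = 0.0206 and 0.267, adjusted 0.0748 and 0.347). For Aqp8 it was 0.142 and -0.739 (exact permutation p = 0.743 and 0.0972, adjusted 0.878 and 0.140). The labels give no position within the colon, and the part of position in the relation of Isx with the other vitamin A genes was not tested.

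**Figure D5:**
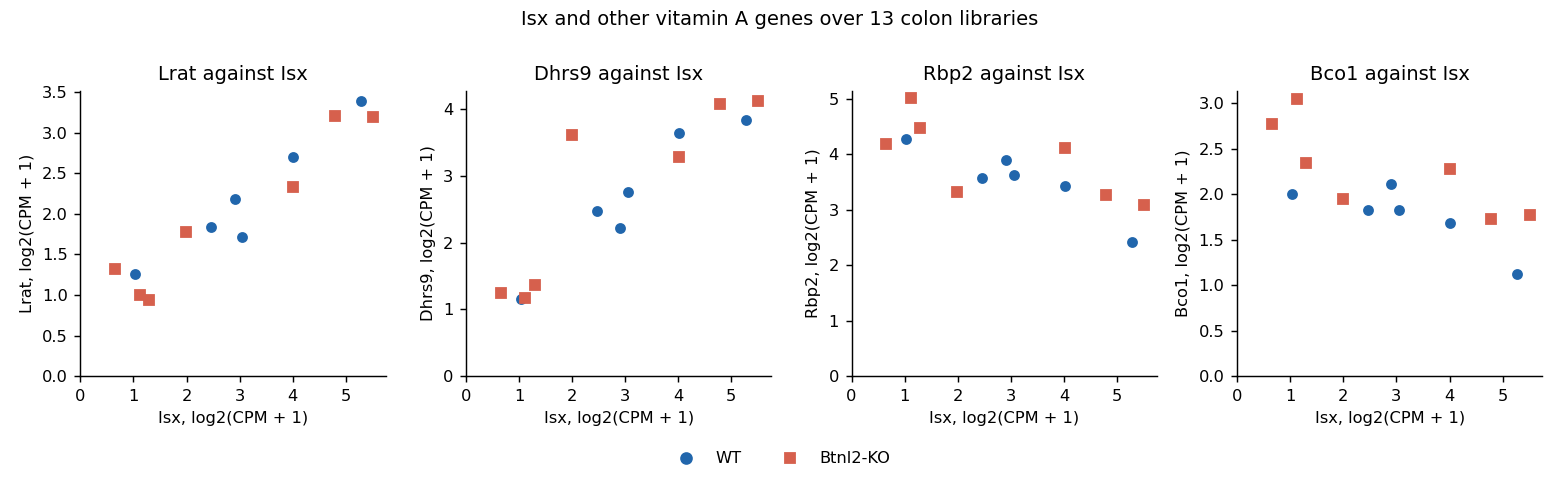
Lrat, Dhrs9, Rbp2, and Bco1 against Isx in 13 colon tissue libraries, both axes as log2(CPM + 1), with 1 point per library, WT as blue circles and Btnl2-KO as red squares. Lrat and Dhrs9 rise with Isx (r = 0.960 and 0.899) and Rbp2 and Bco1 fall (r = -0.781 and -0.731).

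The last question was whether loss of Btnl2 changed the vitamin A genes. In none of the 8 comparisons of Btnl2-KO with WT mice was any of the 10 genes called, nor any of the 54 other pathway genes. In small intestine tissue, where 0.0202% of all 14866 genes were called, 3 of the 10 genes had an unadjusted p below 0.05, as had 23% of all genes. Lrat stood at 29.1 to 49.5 CPM in Btnl2-KO and 15.7 to 35.7 CPM in WT mice (log2 fold change 0.50, SE 0.170, edgeR FDR 0.137). Aldh1a1 stood at 153 to 239 and 62.4 to 228 CPM (log2 fold change 0.72, SE 0.301, edgeR FDR 0.183), and Scarb1 at 6.87 to 12.8 and 9.88 to 14.4 CPM (log2 fold change -0.33, SE 0.130, edgeR FDR 0.169). All 3 overlapped between genotypes. The sum of 10 epithelial markers, 14320 to 19361 CPM in Btnl2-KO and 9530 to 18539 CPM in WT mice, moved with Lrat and Aldh1a1. So did the sum of 8 enterocyte markers, 11230 to 31279 CPM in Btnl2-KO and 2100 to 12975 CPM in WT mice. The part of these markers in the values of the 3 genes was not tested.

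In colon tissue, where 0.0269% of genes were called, Bco1 alone of the 9 genes tested had an unadjusted p below 0.05, against 4.14% of all genes. It stood at 2.31 to 7.22 CPM in Btnl2-KO and 1.17 to 3.31 CPM in WT mice (log2 fold change 0.71, SE 0.295, edgeR FDR 0.972). The difference between the genotype effects of colon and small intestine was called for none of the 10 genes and for 0.0193% of all 15540. Scarb1 came nearest (difference of log2 fold changes 0.46, SE 0.156, edgeR FDR 0.307), followed by Aldh1a1 (-0.82, SE 0.367, edgeR FDR 0.353).

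In IECs, the log2 fold changes of the 8 genes tested ranged from -1.24 (Rdh7) to 0.11 in the duodenum, -1.02 (Rbp2) to 0.67 (Bco1) in the jejunum, and -0.19 to 2.06 (Rbp2) in the ileum, none with an unadjusted p below 0.05. The shares of all genes called were 0%, 0%, and 0.00774%. The standard errors were wide, at 1.10 for Rbp2 in the duodenum and 1.43 in the ileum, where the discordant libraries are, and Isx had the narrowest (0.135 to 0.260, log2 fold changes -0.22 to 0.11). At unadjusted p below 0.05, 154, 1054, and 268 genes were counted in edgeR, and DESeq2 called 0, 1, and 3 genes and none of the 10.

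In γδ IELs, 0.00789%, 0.00794%, and 0% of genes were called in duodenum, jejunum, and ileum. In the ileum, 2 of the 7 genes tested, Isx and Aldh1a1, had an unadjusted edgeR p below 0.05, against 8.79% of all genes. Isx stood at 10.6, 2.50, and 23.4 CPM in Btnl2-KO and 11.7, 44.9, 37.1, and 41.0 CPM in WT mice (log2 fold change -1.45, SE 0.634, edgeR FDR 0.553). Aldh1a1 stood at 1.36, 1.69, and 3.17 CPM and 3.33 to 6.02 CPM, without overlap (log2 fold change -1.13, SE 0.445, edgeR FDR 0.529). The epithelial sum moved the same way, from 957 to 3444 CPM in Btnl2-KO and 3306 to 8497 CPM in WT libraries, and with the mean of these markers as a covariate the log2 fold change of Isx was 0.31 and that of Aldh1a1 -0.92 (edgeR FDR 0.695 and 0.534). The jejunal Btnl2-KO library 1105592, with the lowest Epcam (123 CPM), also held the lowest jejunal values of Rbp2 (1.49 CPM), Isx (0.766 CPM), and Aldh1a1 (0.268 CPM). In the ileum, edgeR counted 1108 genes at an unadjusted p below 0.05, and DESeq2 called 227 genes and none of the 10.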

How the data were processed

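The study sequenced RNA of IECs, γδ IELs, and whole tissue as 65 bulk libraries, and 6 single-cell libraries were not used here. The expected counts were made by the authors with RSEM from exon reads on the sense strand, mapped in ArrayStudio to a customized mouse genome (GRCm38 in the submitters' processing notes), and deposited as 1 table per fraction. Of the deposited values, 14.9% (IECs), 17.2% (tissue), and 5.00% (γδ IELs) were not whole, and all were rounded. One γδ IEL column that matches no sample was left out. The sources name different library kits, so none is given here.

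A gene was tested if the number of libraries in which it reached 10 counts was no smaller than the smallest group of the fit. Tests were run within a table with edgeR 4.0.16 (TMM, quasi-likelihood test, R 4.3.3), with Benjamini-Hochberg adjustment over all genes tested. Segment comparisons used the WT libraries of a table, genotype comparisons those of 1 segment or tissue, and the difference of genotype effects an interaction term over all tissue libraries. The SE is the absolute log2 fold change over the square root of the F statistic. Alternatives were DESeq2 1.42.0 (the study's tool), other size factors, no filter on low counts, no minimum fold change, all libraries in one fit, an epithelial marker covariate, and leaving out each library. Leaving out the libraries with discordant regional markers was chosen after seeing the data. Libraries of a group differed beyond sampling noise (chi-square per degree of freedom at least 36.0, 5.08, and 14.3 in IECs, tissue, and γδ IELs) and each counted as 1. Scripts were tested on simulated counts. Correlations used SciPy 1.17.1 permutation tests. One of the relations computed is not reported here. All 10 vitamin A genes were named and, of the 54 other pathway genes, the 2 with the largest change per direction among those called. Ccr9, Itga4, and Itgb7 are named only as members of their list. The vitamin A genes and gene lists were chosen with earlier results of these data known.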

Additional observations from a re-analysis of the deposited data

Results flagged for a closer look

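Dixon's criterion was applied to 62 sets, each of 1 gene in 1 group of 4 to 7 libraries. In 2 of these sets a single library stood far from the rest. Chance alone meets the criterion in about 1 of 20 sets, and 2 of 62 is no larger share. Rdh7 stood at 90.0 CPM in small intestine library 964939 of the Btnl2-KO group and at 4.56 to 10.4 CPM in the other 6 libraries. The same library held the highest Gata4 of its group (95.6 CPM against at most 1.74 CPM) and the lowest Fabp6 (431 CPM against 2893 CPM or more). Isx stood at 11.7 CPM in ileal γδ IEL library 1105587 of the WT group and at 37.1 to 44.9 CPM in the other 3, and its Epcam was the lowest of the group as well (344 CPM against 746 to 957 CPM). The part of regional markers or of epithelial RNA in these values was not tested.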

How the results depend on the processing

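Of 897 values of single genes under alternatives (50 results), 857 kept their direction and their side of the threshold, 30 lost a call, 9 gained one, and 1 reversed. Along WT IECs, the number of vitamin A genes called from duodenum to jejunum, 0, became 2 with DESeq2 and 0 to 1 with a library left out (1 without 1003468). From duodenum to ileum, 5 became 0 with all libraries of the table in one fit (edgeR FDR 0.155 to 0.255), which adds the discordant Btnl2-KO libraries and left the log2 fold changes at -5.02 (Rbp2), -4.61 (Rdh7), and -3.06 (Aldh1a1), and 0 to 5 with a library left out. From jejunum to ileum, 0 became 2 with DESeq2 and 0 to 1 with a library left out (1 without 1003476). In γδ IELs, 3 from jejunum to ileum became 1 with all libraries in one fit and 1 to 4 with a library left out. Isx in ileal γδ IELs reversed between genotypes, to a log2 fold change of 0.31 with the epithelial covariate (edgeR FDR 0.695). The number called in genotype comparisons was 0 throughout.

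Counts over all genes moved more. From duodenum to jejunum, duodenum to ileum, and jejunum to ileum, IECs gave 0 to 415, 0 to 1380, and 0 to 292 genes (100, 860, and 84 in the main comparison). The corresponding γδ IEL counts were 1861 to 4275, 125 to 548, and 1436 to 4237 (2900, 272, and 2822). Colon against small intestine gave 3943 to 7115 in WT and 4462 to 7562 in Btnl2-KO mice (4185 and 4462), and genotype in small intestine gave 3 to 219 (181 with DESeq2), in colon 3 to 9, and their difference 3 to 23. Genotype gave 0 to 18, 0 to 1, and 0 to 3 genes in IECs and 0 to 5, 0 to 2, and 0 to 227 in γδ IELs of duodenum, jejunum, and ileum. The cause of these differences was not tested.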
